A study of Mus musculus with 20 samples.

Results

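The intervals described here are 1303 CCCGGG intervals of the mouse genome whose methylation-dependent read counts were high in every library and differed little between newborn and 21-day-old hypothalamus and between neurons and non-neurons. They were chosen on the measured counts. Each library's counts were divided by that library's median count over the 15147 intervals with at least 20 reads in all 20 libraries, which gives a relative read count in which 1 is the median of those intervals. An interval was kept when it held at least 100 reads in every library (8102 did, called strongly covered below) and when the highest of the 4 group means divided by the lowest was at most 1.25. The 1303 members were 16.1% of the strongly covered intervals and 2.57% of the 50782 intervals in the table, and all 1303 passed the filter on low counts, as did 26679 intervals in all. In the accounts of single intervals, ratios and statements that groups overlap refer to the relative read count unless another scale is named. Because the rule used the means of all 4 groups, every comparison of groups on the members is a description and supports nothing.

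The libraries came from hypothalami of inbred male C57BL/6 mice, with no allele or treatment named, taken at postnatal day 0 (P0) or day 21 (P21). Nuclei were stained for NeuN, a protein of neuronal nuclei, and sorted by fluorescence into neurons (stained) and non-neurons (not stained), so that the non-neurons are whatever nuclei lacked the stain and not a single cell type. The 4 groups were P0 neurons, P0 non-neurons, P21 neurons and P21 non-neurons, with 5 libraries each, described as independent, and each sorted sample pooled 2 hypothalami. The table holds no gene names, so neither the sort nor the tissue could be checked here against marker genes.

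Methylation of cytosine in CpG pairs is copied at each cell division by a maintenance methyltransferase and is present at most CpG sites of mammalian genomes outside CpG islands. In the brain, neurons and glia acquire different methylation at many sites as they mature after birth. In methylation-specific amplification, SmaI first cuts unmethylated CCCGGG sites and leaves blunt ends, XmaI then cuts the methylated ones and leaves overhangs, adaptors are ligated to the overhangs, and the fragment between a pair of neighbouring methylated sites is amplified and sequenced. A high count therefore needs methylation at both ends of the interval, and the count also depends on interval length and on amplification. Counts are relative: they give no percentage of methylated molecules, and a count that does not move shows only that an interval kept its place among the others in the library.

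The members were one end of a continuous distribution. Their ratio of highest to lowest group mean had a median of 1.19 with quartiles of 1.14 and 1.22, against a median of 1.52 over all strongly covered intervals. Only 18 members had a ratio of at most 1.05, 146 at most 1.1, 401 at most 1.15 and 801 at most 1.2. The next step beyond the threshold, from 1.25 to 1.3, held a further 519 intervals, close to the 502 between 1.2 and 1.25. No gap in the values separated members from the rest.

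**Figure D1:**
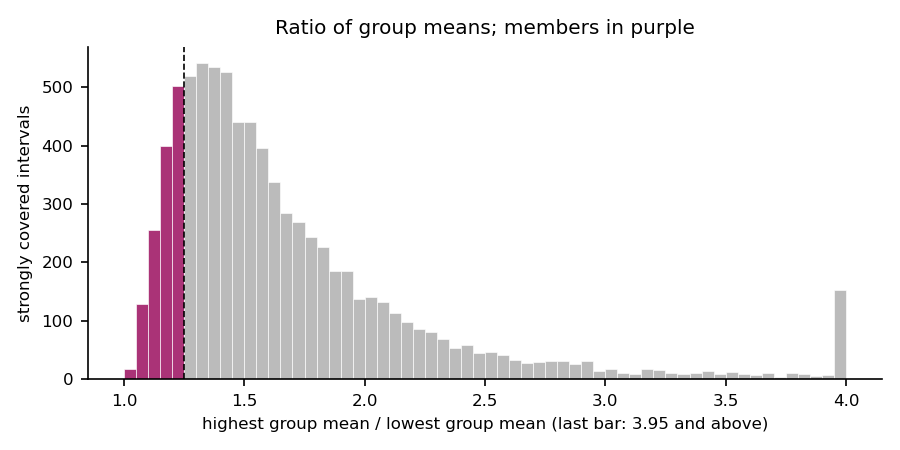
Number of strongly covered intervals (y axis) by the ratio of the highest to the lowest of the 4 group means of relative read count (x axis), in steps of 0.05, with members in purple and the other intervals in grey; the dashed line is the threshold of 1.25 and the last bar collects all higher ratios. The counts rise through the threshold without a break, from 502 intervals just inside it to 519 just outside.

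The interval chr6:36215319-36215917, 598 bp long on chromosome 6, had the smallest ratio of all, 1.02. Its relative read count was 3.83, 3.48, 3.56, 4.08 and 3.94 in the 5 libraries of P0 neurons, and 3.58, 3.65, 3.56, 4.11 and 3.91 in P0 non-neurons. It was 4.54, 3.32, 3.49, 3.80 and 3.54 in P21 neurons, and 4.45, 3.24, 3.67, 3.96 and 3.76 in P21 non-neurons. The group means of 3.78 ± 0.254, 3.76 ± 0.239, 3.74 ± 0.482 and 3.82 ± 0.441 (SD, n = 5 each, in that order) lay much closer together than the libraries within any group, and all 4 groups overlapped. In raw reads the interval ranged from 563 to 1135 over the libraries, and no other interval of the table lay nearer than 40651 bp.

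The next smallest ratios belonged to intervals of quite different length and level. The short chr4:134687052-134687280 (228 bp) had means of 1.93 ± 0.121 in P0 neurons, 1.93 ± 0.336 in P0 non-neurons, 1.89 ± 0.174 in neurons and 1.93 ± 0.419 in non-neurons at P21 (SD, n = 5). Its single libraries ran from 1.52 to 2.45 in P0 non-neurons and from 1.54 to 2.52 in P21 non-neurons, so that equal means were averages over an uneven set. For chr12:111260123-111261451 (1328 bp) the means were 1.02 ± 0.0769, 1.01 ± 0.0914, 0.995 ± 0.0499 and 1.01 ± 0.151 in the same order of groups, which puts this interval at the level of the library median. The interval chr19:3155488-3156593 (1105 bp) held 1.57 ± 0.240, 1.53 ± 0.104, 1.54 ± 0.216 and 1.55 ± 0.213, and chr12:114494727-114495942 (1215 bp) held 2.41 ± 0.220, 2.35 ± 0.136, 2.40 ± 0.336 and 2.35 ± 0.346. In each of these 5 intervals the 4 groups overlapped, and the mean within-group coefficient of variation (CV, the SD as a percentage of the mean) was 9.13% to 13.7%.

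The members with the most reads were not the flattest. The interval chr6:47597795-47598345 (550 bp) had the highest mean level of all members, 674 CPM (reads in each 1000000 of the TMM-scaled library). Its relative read count was 26.5, 24.0, 23.9, 25.9 and 24.3 in P0 neurons against 21.4, 22.0, 23.6, 24.1 and 22.9 in P0 non-neurons. At P21 it was 26.5, 20.2, 26.8, 26.6 and 23.1 in neurons and 25.2, 20.1, 24.1, 23.8 and 23.4 in non-neurons. The groups overlapped at both ages on this scale, and the ratio of the means was 1.09. In CPM the P0 groups did not overlap, at 656 to 771 in neurons and 572 to 632 in non-neurons, and the interval was called for cell type at P21 (adjusted p = 0.0123 by edgeR) and for any difference (adjusted p = 0.00218). Second came chr4:62436034-62436438 (404 bp, 554 CPM), at 18.8 ± 0.284 in P0 neurons, 19.3 ± 0.684 in P0 non-neurons, 18.4 ± 1.96 in neurons and 22.4 ± 1.89 in non-neurons at P21 (SD, n = 5), so that its ratio of 1.22 came from the P21 non-neurons alone. Under TMM it was called with age in non-neurons (adjusted p = 0.00661 by edgeR) but not for cell type at P21 (adjusted p = 0.325). On the relative scale chr17:84290349-84291160 (811 bp, 392 CPM) fell in mean through the groups, from 15.2 ± 0.742 in neurons and 14.5 ± 0.915 in non-neurons at P0 to 13.6 ± 0.882 and 12.5 ± 0.626 in P21 neurons and non-neurons, and stayed a member at a ratio of 1.21. In CPM the means were 428, 383, 416 and 341 in the same order. There it was called for cell type at P21 (adjusted p = 0.00249 by edgeR) and any difference (adjusted p = 0.000912), and not for age in either fraction. At mean levels between these intervals, chr2:36451118-36451542 (424 bp, 452 CPM) and chr8:11447741-11448444 (703 bp, 414 CPM) had ratios of 1.13 and 1.105.

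**Figure D2:**
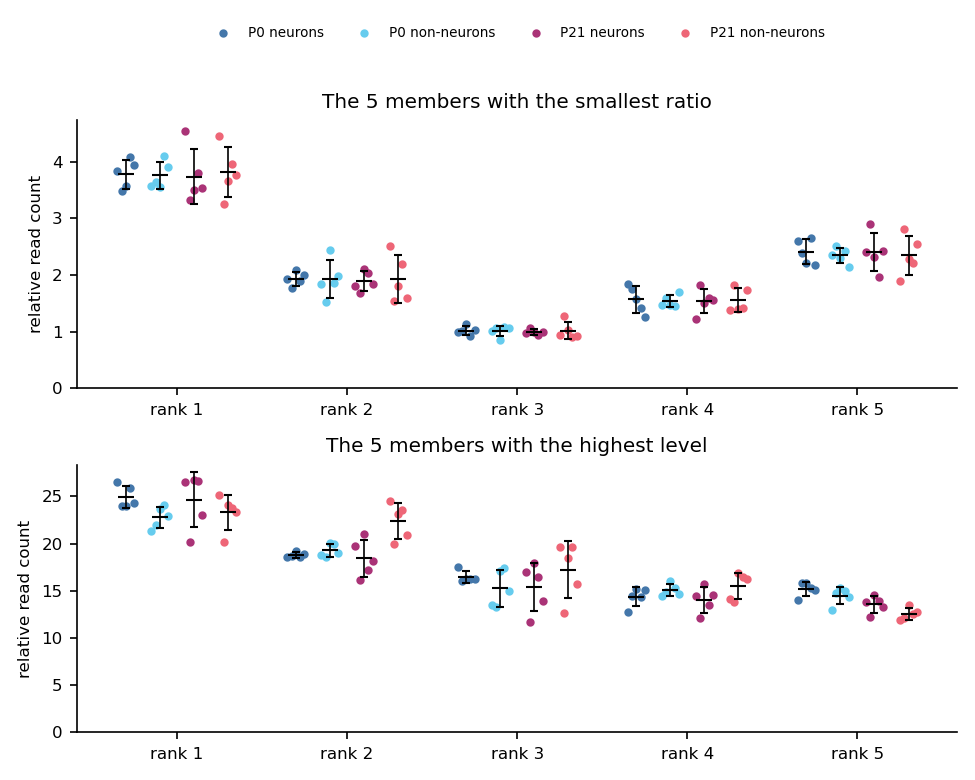
Relative read count (y axis, 1 is the library median) in each of the 20 libraries for the 5 members with the smallest ratio of group means (upper panel) and the 5 members with the highest mean CPM (lower panel), in order from left to right; points are libraries coloured by group, and bars are the group mean ± SD (n = 5). In the upper panel the 4 groups overlap for every interval, while in the lower panel the second interval is higher in P21 non-neurons, at 22.4 ± 1.89 against 18.4 to 19.3 in the other groups.

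At the threshold, members and non-members looked alike. Just inside it, chr19:34355448-34356254 (806 bp) had means of 7.98 ± 0.445, 6.94 ± 0.419, 6.80 ± 0.485 and 6.39 ± 0.391 in P0 neurons, P0 non-neurons, P21 neurons and P21 non-neurons (SD, n = 5). Its libraries ran from 7.36 to 8.49 in P0 neurons and from 5.97 to 6.92 in P21 non-neurons, so these 2 groups did not overlap. The other intervals just inside were chr19:34704134-34704594, at 1.74 ± 0.0811, 1.80 ± 0.171, 1.44 ± 0.122 and 1.56 ± 0.102, and chr1:55947941-55948932, at 0.783 ± 0.0478, 0.855 ± 0.101, 0.684 ± 0.179 and 0.699 ± 0.151. Just outside lay chr14:52666494-52667199, with 8.73 ± 0.523, 9.53 ± 0.455, 7.96 ± 0.659 and 9.95 ± 1.04 in the same order. The further intervals just outside were chr1:171554704-171555284, lowest in P21 neurons at 3.93 ± 0.552, and chr7:30176688-30177203, lowest there too at 0.736 ± 0.0706.

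Equal group means did not require equal libraries. Among members the median within-group CV was 9.88%, against 9.99% in strongly covered intervals that were no members. The largest CV, 29.5%, was that of chr5:31595434-31597191 (1757 bp), with relative read counts of 3.84, 4.23, 3.22, 1.24 and 1.66 in neurons and 4.00, 4.20, 3.61, 1.68 and 1.28 in non-neurons at P0. Replicates 1 to 3 were thus above 3 and replicates 4 and 5 below 2 in both sorted fractions, while the P21 libraries ran from 2.56 to 3.19 in neurons and from 2.75 to 4.16 in non-neurons. The same split was seen in chr15:59626806-59628105 (CV 22.5%), where P0 neurons had 3.43, 3.10, 3.36, 1.66 and 1.48 and P0 non-neurons 3.42, 3.50, 2.87, 1.71 and 1.95. In chr2:73380665-73381636 (CV 22.9%) replicates 4 and 5 were again the lowest at P0, at 0.963 and 0.955 in neurons and 0.747 and 0.840 in non-neurons. These 3 intervals met the rule because averages over both sets of P0 replicates fell near the P21 means.

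Within each sorted fraction the P0 replicates 1 to 3 also parted from 4 and 5 on the third principal component of all tested intervals (5.06% of the variance), at 30.2 to 44.3 against -18.9 and -15.7 in neurons and -16.2 to 9.22 against -42.6 and -27.2 in non-neurons, and the labels name no batch that matches this split. Over the members, the mean of replicates 1 to 3 differed from that of replicates 4 and 5 by a median of 1.06-fold in each group. It differed by more than 1.25-fold at 66 members in P0 neurons, 29 in P0 non-neurons and 19 in each P21 group, which is 5.07%, 2.23%, 1.46% and 1.46% of them. The shares among strongly covered non-members were 3.75%, 2.43%, 1.78% and 1.97%. Keeping only replicates 1 to 3 at P0, the rule chose 1248 intervals, of which 1109 were among the 1303, and keeping only replicates 4 and 5 it chose 1211, of which 1025 were. Its part in the other results on members was not tested beyond the counts given with them.

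At the other extreme, chr5:111836157-111837083 (926 bp) had the smallest CV, 3.58%, with 7.06, 7.02, 7.31, 6.94 and 7.20 in P0 non-neurons and 5.86, 5.67, 5.64, 6.02 and 5.65 in P21 neurons. Those 2 groups did not overlap and their means of 7.11 ± 0.147 and 5.77 ± 0.168 (SD, n = 5) gave its ratio of 1.23. On this scale chr6:128342815-128343684 (869 bp, CV 4.05%) was even both within and between groups, at 1.97 ± 0.0504, 1.95 ± 0.0589, 2.02 ± 0.103 and 2.08 ± 0.115. The third, chr1:52309167-52310091 (CV 4.14%), held 8.21 ± 0.148 in P0 neurons and 6.62 ± 0.374 in P21 non-neurons, with no overlap. Under TMM the order of the first 2 was reversed. There chr5:111836157-111837083 had a ratio of group means of 1.06, with 182 to 195 CPM in P0 non-neurons overlapping 171 to 186 CPM in P21 neurons (any difference, adjusted p = 0.609 by edgeR), and chr6:128342815-128343684 had a ratio of 1.198 (adjusted p = 0.0426). Which of these intervals was even between groups thus depended on the scaling.

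Members were longer than the other strongly covered intervals. Their median length was 966 bp (quartiles 572 and 1286 bp), against 789 bp in strongly covered non-members. The shortest was chr11:50973252-50973316, of 64 bp, with group means of 1.48 ± 0.193 to 1.68 ± 0.0615 (SD, n = 5), and the longest chr11:4115551-4118437, of 2886 bp, with 1.24 ± 0.130 to 1.55 ± 0.227. The share of strongly covered intervals that were members changed with length but not in one direction. It was 15.8% between 200 and 399 bp (140 of 885), fell to 10.7% between 600 and 799 bp (157 of 1462), rose to 23.1% between 1200 and 1599 bp (298 of 1292) and 24.3% between 1600 and 1999 bp (86 of 354), and was 13.6% from 2000 bp up (37 of 272). Only 6 of 78 strongly covered intervals under 200 bp were members (7.69%). Length bears on amplification as well as on where the sites lie. When the lowess trend of each library's log counts over length was removed before the rule was applied, 1085 intervals met it, of which 500 were among the 1303.

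**Figure D3:**
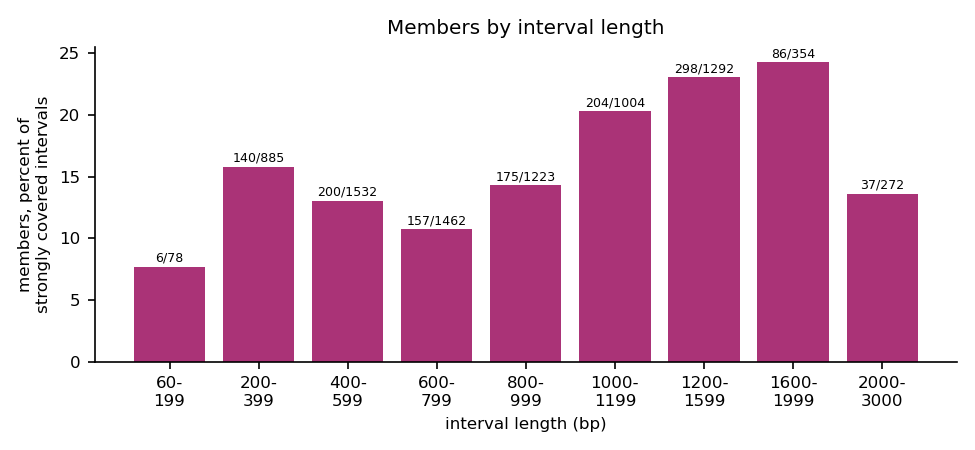
Members as a percentage of strongly covered intervals (y axis) by interval length in bp (x axis); the numbers on the bars are members over strongly covered intervals. The share is lowest under 200 bp (7.69%, 6 intervals) and between 600 and 799 bp (10.7%) and highest between 1600 and 1999 bp (24.3%).

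Members were less frequent among the intervals with the most reads. With the strongly covered intervals cut into 4 equal classes by mean CPM, the share of members was 17.2% in the lowest, 18.1% in the second, 18.4% in the third and 10.6% in the highest. Their median level was 64.6 CPM against 72.7 CPM in strongly covered non-members, and per kilobase of interval it was 77.0 against 109 CPM. Members also lay slightly more often away from other sites. Of strongly covered intervals with no other interval within 5 kb, 17.3% were members, falling to 15.9% with 1 or 2, 14.1% with 3 to 5, 13.6% with 6 to 9 and 10.7% with 10 or more. The 3 members in that densest class, named after their values were seen, were chr11:70471398-70472237, chr6:58111694-58112557 and chr6:58115244-58116143, with 11, 14 and 21 others within 5 kb. Among strongly covered intervals of 800 bp or more the share was 19.4% with 5 or fewer others and 17.5% with 6 or more, and among shorter ones 12.8% and 9.72%, so length separated the shares more than crowding did. These shares are counts of intervals, some of which share a cut site, and carry no test.

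Every chromosome of the table held members. Their share of strongly covered intervals ran from 12.95% on chromosome 10 (50 of 386) to 20.6% on chromosome 13 (56 of 272) among the autosomes, and was 21.2% on the X (24 of 113). On the X, which is present in 1 copy in males, only 5.47% of intervals were strongly covered, against 16.0% over the table. The single member on the Y, chrY:38284-39557, named after its values were seen, was 1 of 2 strongly covered intervals there. It had relative read counts of 1.03 ± 0.106, 0.998 ± 0.103, 0.960 ± 0.105 and 0.849 ± 0.144 in P0 neurons, P0 non-neurons, P21 neurons and P21 non-neurons (SD, n = 5), with overlap between all groups on this scale. Under TMM it was called higher in P21 neurons than in P21 non-neurons, by 0.35 ± 0.12 in log2 (SE, adjusted p = 0.0183 by edgeR), and the CPM of those 2 groups did not overlap.

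As a share of all reads, the members were not constant. They held 10.3% ± 0.195 of the reads in P0 neurons, 10.004% ± 0.0324 in P0 non-neurons, 12.1% ± 0.217 in neurons and 12.1% ± 0.133 in non-neurons at P21 (SD, n = 5). The libraries ran from 9.96% to 10.6% at P0 and from 11.7% to 12.3% at P21, with no overlap between the ages in either fraction. The median count by which the rule divides moved the same way, from 25.6 ± 0.623 and 25.001 ± 0.769 reads in 1000000 in P0 neurons and non-neurons to 31.9 ± 1.299 and 29.9 ± 1.08 at P21. Over the same ages the 100 intervals with the most reads in a library fell from 6.29% ± 0.260 to 4.82% ± 0.261 of its reads in neurons and from 6.71% ± 0.206 to 5.72% ± 0.392 in non-neurons, and all strongly covered intervals together went from 88.0% of reads in both P0 groups to 82.7% and 84.3%. As a set the members thus held a larger share of the reads at P21, which does not hold for each member: 476 of them also had a ratio of at most 1.25 in shares of reads.

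**Figure D4:**
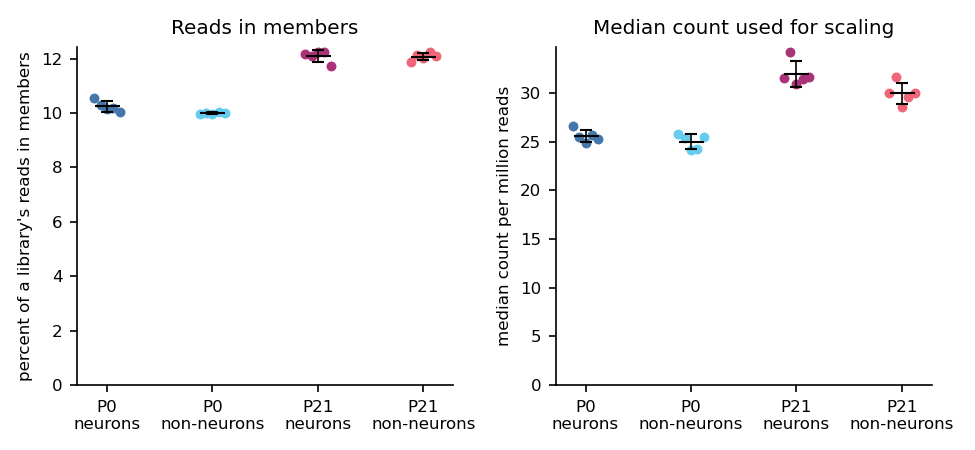
Left, percentage of each library's reads that fell in the 1303 members; right, median count in CPM, here of unscaled totals, over the 15147 intervals used for scaling; points are libraries and bars the group mean ± SD (n = 5). On both axes the P21 libraries lie above all P0 libraries, at 11.7% to 12.3% against 9.96% to 10.6% on the left.

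How many intervals count as constant, and which, depended on that division. With library sizes scaled by TMM (the trimmed mean of M-values of edgeR, which centres most log ratios between libraries) the same thresholds chose 1885 intervals, among them 997 of the 1303 (76.5%). DESeq2 size factors chose 1778 with 1052 shared (80.7%), and upper-quartile factors 1268 with 1117 shared (85.7%). Library totals alone chose 1728, of which only 476 were shared (36.5%), and 416 of the 1303 (31.9%) met the rule under every scaling. Under totals the median fold of members from P0 to P21 was 1.19 in neurons and 1.22 in non-neurons, against 0.949 and 1.02 under the rule's own division and 1.03 and 1.04 under TMM. The flattest interval, chr6:36215319-36215917, had a ratio of 1.02 under the rule and 1.27 under totals, and chr19:34704134-34704594, just inside the threshold at 1.25, had 1.04 under totals.

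Which group was highest or lowest also turned on the scaling. Under the rule P21 neurons had the lowest mean at 670 of the 1303 members and P21 non-neurons the highest at 540, while P0 neurons were highest at 326, P0 non-neurons at 288 and P21 neurons at 149. Under TMM the order changed, with P21 neurons highest at 546 and P0 non-neurons lowest at 647. Under totals the highest mean was in P21 non-neurons at 699 and in P21 neurons at 603, and the lowest in P0 non-neurons at 770 and in P0 neurons at 513. The median change of the members with age in non-neurons was upward under every scaling, from 1.02-fold to 1.22-fold. For age in neurons and for cell type at either age, the direction of the median changed with the scaling.

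The fit over all 26679 tested intervals (edgeR quasi-likelihood test with TMM, Benjamini-Hochberg adjusted p under 0.05, called below) was read on the members beside its rate in all intervals. The rule used the same counts, so low counts among members are fixed by it in large part. Neurons and non-neurons at P0 differed at 46 members (3.53%), all higher in neurons, against 9.78% of all tested intervals (6.92% higher, 2.86% lower) and 14.4% of strongly covered ones. None was lower by the adjusted p, and at an unadjusted p under 0.05 there were 2 lower and 192 higher; limma-voom called 36 higher and DESeq2 41 higher, and neither called any lower. The direction flipped in part with scaling, to 7 higher and 7 lower with upper-quartile factors, 11 and 5 with the rule's median and 24 and 4 with totals. The count changed with the P0 libraries used: it was 18 with P0 replicates 1 to 3 only and 0 with replicates 4 and 5 only, where edgeR gave 16 higher and 1 lower at an unadjusted p under 0.05. Over all tested intervals the calls in these fits with fewer P0 libraries also fell, from 2610 to 1780 and 978. The member count was 18 without replicate 1 and 28 without replicate 2 of P0 neurons, and 26 without replicate 1 or without replicate 5 of P0 non-neurons.

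At P21, 197 members (15.1%) differed between neurons and non-neurons, all higher in neurons under TMM, against 35.8% of all tested intervals (20.8% higher, 15% lower) and 45% of strongly covered ones. None was lower by either the adjusted or the unadjusted p with edgeR and TMM; DESeq2 called 177 higher and 1 lower, and limma-voom 202 higher and 0 lower. This direction reversed under other scalings of the same counts, with 37 higher and 263 lower under the rule's median and 33 higher and 327 lower under upper-quartile factors, and was split at 115 higher and 39 lower under totals. The median log2 difference of the members was 0.07 under TMM and -0.11 under the rule's median, against -0.06 and -0.23 over all tested intervals. The scaling shifts members and all intervals by about the same amount.

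With age in neurons 161 members (12.4%) were called, 159 higher and 2 lower at P21, against 57.3% of all tested intervals (31% higher, 26.3% lower) and 62.7% of strongly covered ones. At an unadjusted p under 0.05 the same fit gave 200 higher and 16 lower. With limma-voom the calls were 162 higher and 4 lower, and with DESeq2 113 and 47. A fit of only the compared groups called 138 higher and 40 lower. The 2 that were lower in the edgeR fit over all 4 groups, named after their values were seen, were chr16:37854653-37855230, from 7.04 ± 0.176 relative reads at P0 to 5.703 ± 0.204 at P21 (-0.18 ± 0.08 on the log2 scale, SE, adjusted p = 0.0411 by edgeR), and chr11:19969150-19969993, from 5.42 ± 0.513 to 4.35 ± 0.364 (-0.20 ± 0.09, SE, adjusted p = 0.0452). In both the 5 P21 libraries lay below the 5 P0 libraries in relative read count, while in CPM the second overlapped, at 133 to 182 at P0 and 119 to 145 at P21. The majority direction again depended on scaling, with 44 higher and 200 lower under the rule's median, 75 and 114 under upper-quartile factors, 109 and 29 under DESeq2 size factors and 722 higher and 0 lower under totals. With P0 replicates 1 to 3 only, 91 members were called, 66 higher and 25 lower, and with replicates 4 and 5 only 149, all higher. Calls over all tested intervals went from 15280 to 13854 and 12959 in these fits.

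With age in non-neurons 196 members (15.0%) were called, 163 higher and 33 lower, against 54.3% of all tested intervals (28.5% higher, 25.8% lower) and 61.1% of strongly covered ones. The split was 113 higher and 80 lower under the rule's median, 89 and 72 under DESeq2 size factors, 219 and 29 under upper-quartile factors, and 835 and 0 under totals. With limma-voom it was 146 and 35, and with DESeq2 99 and 78. The count was 127 without replicate 4 of P21 non-neurons, 86 with P0 replicates 1 to 3 only and 56 with P0 replicates 4 and 5 only. In the last 2 fits the calls over all tested intervals went from 14479 to 12895 and 11401. The change with age differed between the cell fractions (the interaction, neurons minus non-neurons) at 17 members (1.305%), all with the change in neurons above that in non-neurons, against 14.1% of all tested intervals (10.9% higher, 3.24% lower) and 17.6% of strongly covered ones. No member had a lower interaction by the adjusted p, and 25 did at an unadjusted p under 0.05 beside 71 higher; limma-voom called 17 and 0, and DESeq2 23 and 3. With the rule's median the split became 8 higher and 28 lower, with upper-quartile factors 8 and 35, and with totals 22 and 10. The interaction count was 11 without replicate 1 of P0 neurons, 27 without replicate 2 of P21 neurons, 6 with P0 replicates 1 to 3 only and 3 with replicates 4 and 5 only. Over all tested intervals the interaction calls in the last 2 fits went from 3772 to 3067 and 2172. The P0 and P21 libraries are shared between these comparisons, so their counts are not independent.

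Over the 4 groups together, 435 members (33.4%) were called for any difference, against 75.2% of all tested intervals and 81.1% of strongly covered ones. The word constant thus describes the ratio of group means and not the outcome of a test. In the 4 comparisons of pairs of groups, 866 members (66.5%) were called in none, 280 in 1, 151 in 2 and 6 in 3 or 4. Under TMM their log2 differences, kept small by the rule, ran from -0.21 to 0.40 for cell type at P0, from -0.15 to 0.49 for cell type at P21, from -0.20 to 0.43 for age in neurons and from -0.28 to 0.36 for age in non-neurons. For 1206 members (92.6%) the 95% confidence intervals of all 4 differences lay within 1.5-fold in either direction. The rule fixes this share and the counts of comparisons called in large part. Neither is given here for all tested intervals, so neither is a result about the members.

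The intervals next to the members were described as well. Each end of an interval is a CCCGGG site, and a touching interval shares that site, so both counts need methylation there while each also needs its own far site. Of the 1303 members, 622 (47.7%) touched no other interval of the table, 529 touched only non-members and 152 (11.7%) touched another member. Among touching pairs in which both intervals were strongly covered, 78 held 2 members, 278 held 1 and 1108 held none. The strongly covered partner of a member was itself a member in 35.9% of cases, and that of a non-member in 11.1%. Over these 1464 pairs the ratios of the partners had a Spearman rho of 0.45, a description across pairs that share a cut site and the same libraries.

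Runs of touching members were short, with 70 runs of 2 and 4 runs of 3. The first run of 3, on chromosome 4, was made of chr4:134303946-134304296 (350 bp), chr4:134304296-134306277 (1981 bp) and chr4:134306277-134307649 (1372 bp). The means of the middle interval were 1.42 ± 0.195, 1.38 ± 0.0851, 1.45 ± 0.0736 and 1.40 ± 0.105 in P0 neurons, P0 non-neurons, P21 neurons and P21 non-neurons (SD, n = 5). Those of the first ran from 1.32 ± 0.220 to 1.52 ± 0.0610, and those of the last from 1.26 ± 0.215 to 1.38 ± 0.0915. All 3 intervals had nearly the same level despite their lengths, and their 4 groups overlapped on this scale. Under TMM the middle interval was at 42.3 to 48.5 CPM in P21 neurons and 34.0 to 39.7 CPM in P21 non-neurons, without overlap, and was called for cell type at P21 (adjusted p = 0.0482 by edgeR) and for any difference (adjusted p = 0.0319).

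The other 3 runs of 3 were named after their values were seen. In the run of chr11:72789604-72791151, chr11:72791151-72792225 and chr11:72792225-72794020, the group means ran from 1.97 to 2.41, from 3.33 to 3.91 and from 1.34 to 1.62. The run of chr11:118369956-118371565, chr11:118371565-118372140 and chr11:118372140-118372303 held means of 1.11 to 1.33, 6.22 to 7.27 and 1.43 to 1.74. Its middle interval was several times as abundant as either neighbour in every group. On chromosome 17, chr17:47886413-47886922, chr17:47886922-47887444 and chr17:47887444-47888729 held 3.06 to 3.51, 2.99 to 3.48 and 2.52 to 3.04. Under TMM chr11:72789604-72791151 was called higher with age in neurons, by 0.41 ± 0.10 in log2 (SE, adjusted p = 0.000439 by edgeR), and in non-neurons (adjusted p = 0.0275). The third interval of that run, chr11:72792225-72794020, was called for cell type at P21 (0.44 ± 0.10, adjusted p = 0.000356), for age in neurons (adjusted p = 0.000632) and for the interaction (adjusted p = 0.00751). Between them, chr11:72791151-72792225 was called higher in neurons at P21 (adjusted p = 0.00645 by edgeR) and lower with age in non-neurons (adjusted p = 0.0482). Called higher with age in neurons and in non-neurons were chr11:118369956-118371565 (edgeR adjusted p = 0.00419 and 0.0273) and chr17:47886922-47887444 (0.0118 and 0.0211). So was chr17:47887444-47888729 (0.0203 and 0.0382). The other intervals of these runs were not called.

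A total of 681 intervals touched a member and were no members, which leaves out the touching intervals that were steady enough to be members. Of the 681, 640 were tested and 428 (66.9%) were called for any difference among the 4 groups. The rate was 81.5% (3227 of 3958) among tested non-members touching a strongly covered interval that was no member, and 75.2% among all tested intervals. The neighbours of members had fewer reads than those of the other strongly covered intervals (median 16.0 against 22.7 CPM), and fewer reads can give fewer calls. Tested intervals that were not strongly covered had a median of 4.73 CPM, and 72.6% of them were called. The part of read level in the lower rate was not tested. Of the 273 neighbours that were strongly covered themselves, the median ratio was 1.46, against 1.66 for the strongly covered neighbours of non-members, both above 1.25 throughout because members were left out. Between neurons and non-neurons 42 neighbours (6.56%) were called at P0 and 172 (26.9%) at P21, against 10.6% and 43.6% of the tested neighbours of strongly covered non-members. Age was called at 322 (50.3%) in the neuronal and 323 (50.5%) in the non-neuronal fraction, and the interaction at 49 (7.66%), against 64.6%, 59.5% and 15.2% of that set. All 5 rates were also below those of all tested intervals given above.

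The pairs with the largest contrast show a shared site beside unlike counts. They were chosen for that contrast, so their values are a description. In chr11:119048400-119048900 (500 bp), a neighbour, the relative read count was 7.60, 6.84, 7.62, 8.19 and 8.52 in neurons and 6.50, 6.05, 6.14, 7.62 and 6.72 in non-neurons at P0. It was 2.14, 1.84, 1.91, 2.19 and 2.33 in P21 neurons and 1.06, 0.984, 1.16, 1.13 and 1.05 in P21 non-neurons. The ages did not overlap in either fraction, and neither did the fractions at P21. The member it touches, chr11:119046967-119048400 (1433 bp), held 2.86 ± 0.292, 2.83 ± 0.430, 2.90 ± 0.332 and 3.18 ± 0.528 in the 4 groups (SD, n = 5), all overlapping.

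On chromosome 12 the neighbour chr12:113830878-113831787 (909 bp) set P21 non-neurons apart from the rest. Its means were 9.68 ± 0.557 in P0 neurons, 6.59 ± 0.479 in P0 non-neurons, 8.46 ± 0.235 in neurons and 1.79 ± 0.0878 in non-neurons at P21 (SD, n = 5). The member chr12:113829994-113830878 (884 bp) held 6.04 ± 0.184, 6.85 ± 0.320, 5.53 ± 0.256 and 6.87 ± 0.328, close to the threshold at a ratio of 1.24. On this scale it was higher in non-neurons at both ages, without overlap between the fractions at either age. Under TMM its difference between P21 neurons and non-neurons was -0.14 ± 0.08 in log2 (SE, adjusted p = 0.15 by edgeR), so the 2 groups were not separated by that test. On chromosome 1 the neighbour chr1:135068066-135069157 had the same order, at 1.53 ± 0.251, 0.771 ± 0.0964, 1.37 ± 0.101 and 0.291 ± 0.0633, beside the member chr1:135069157-135070251 at 2.10 ± 0.315, 2.00 ± 0.306, 1.95 ± 0.234 and 2.10 ± 0.284.

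The remaining 2 pairs had neighbours with few reads. The neighbour chr2:27539787-27540851 (1064 bp) went from 0.0558 ± 0.0228 and 0.119 ± 0.0497 in P0 neurons and non-neurons to 0.346 ± 0.0614 and 0.251 ± 0.0339 at P21 (SD, n = 5), with as few as 4 reads in a library. The ages did not overlap, and this neighbour was the only one of the 5 that was higher at P21. Its member, chr2:27540851-27541957 (1106 bp), had many times more reads, at 8.97 ± 0.385, 8.37 ± 0.578, 8.93 ± 0.203 and 9.05 ± 0.830. Under TMM that member was called for any difference (adjusted p = 0.00792 by edgeR), at a ratio of 1.24 in CPM. It was called in none of the 4 comparisons of pairs of groups. The neighbour chr15:97575993-97578364 (2371 bp) fell from 0.325 ± 0.154 and 0.245 ± 0.0846 at P0 to 0.112 ± 0.0253 and 0.0680 ± 0.0214 at P21. Its P0 replicates 1 to 3 were at 0.154 to 0.263 in neurons and 0.153 to 0.251 in non-neurons. Replicates 4 and 5 were higher, at 0.475 and 0.500 in neurons and 0.306 and 0.347 in non-neurons. All P0 libraries lay above the P21 libraries of their fraction. The member beside it, chr15:97578364-97579710 (1346 bp), held 1.82 ± 0.110, 1.71 ± 0.146, 2.01 ± 0.165 and 2.03 ± 0.223. Under TMM this last member was called higher with age in both fractions, by 0.27 ± 0.09 in neurons and 0.29 ± 0.10 in non-neurons in log2 (SE, adjusted p = 0.0133 and 0.0107 by edgeR). Its ratio of group means was 1.19 in relative read count but 1.37 in CPM, the scale of that test.

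**Figure D5:**
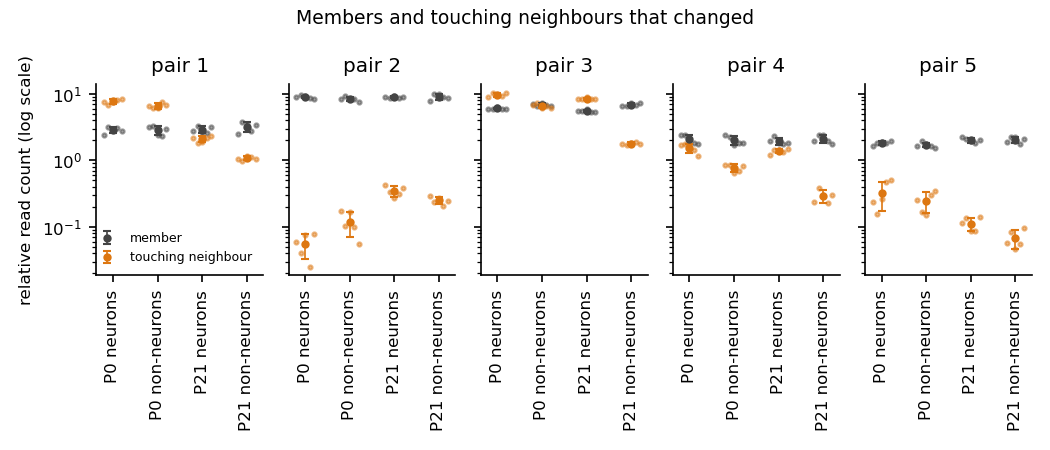
Relative read count on a log scale (y axis) of 5 members (grey) and the touching non-member beside each (orange) in the 4 groups (x axis); small points are libraries, large points and bars the group mean ± SD (n = 5), and pairs are ordered by the neighbour's ratio of group means. The grey means stay within a ratio of 1.25, as the rule requires, while the orange ones move further. In pair 3 the neighbour is at 1.79 ± 0.0878 in P21 non-neurons and at 6.59 or more in the other groups.

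Depth and library quality set limits to these values. Between 5663740 and 9998110 reads were counted per library, and a member's count was never below 100. Between replicates of one group the members differed by more than counting error, with a chi-square per degree of freedom of 2.03 to 22.1 (median 4.77) over the 40 pairs, against 2.00 to 9.31 (median 3.98) over all tested intervals, so no libraries were treated as duplicates. At an equal CV this chi-square rises with reads, and the median level was 64.6 CPM in members against 9.19 CPM in tested intervals. The median within-group CV was 9.88% in members and 19.6% in tested intervals. Replicate 2 of P21 neurons and replicates 1 and 2 of P21 non-neurons stood apart, with a median absolute log2 deviation from the group mean over members of 0.16 to 0.17, against 0.06 to 0.10 in the other 17 libraries. Without any 1 of the 20 libraries the rule chose 1251 to 1379 intervals, of which 1160 to 1267 were among the 1303.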

How the data were processed

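Reads were counted per SmaI/XmaI interval in 20 libraries by the authors, and the unit of the deposited counts was inferred from the table: all values are whole and the library sums differ. FastQC 0.10.1, cutadapt and Bowtie 0.12.9 were used with the mm9 assembly, per the submitters' processing notes. The counting step and the handling of multiply mapping reads are not given in the sources used here. Table columns were assigned by age, cell type letter and replicate number (G was read as glia, the non-neurons), and 0 columns belonged to other samples. A gene annotation and genome of the mm9 build were not used here, so no gene or sequence is given. Per the labels, replicates are biological, each a pool of 2 hypothalami.

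Members were found from the counts as described below the study's design, and the members and lists were chosen with earlier results of these data known. Intervals were named by a rule: the 5 members with the smallest ratio, the 5 with the highest CPM, the 3 intervals on each side of the threshold, the shortest and longest, the first run of the most touching members, the 3 largest and 3 smallest CVs, and the 5 touching neighbours with the largest ratio, each with its member; others are marked where named. For the calls, filterByExpr (minimum count 10), TMM, glmQLFit (robust) with 1 mean per group and glmQLFTest of edgeR 4.0.16 in R 4.3.3 were used over all intervals, with Benjamini-Hochberg adjustment and a threshold of 0.05, after tests on simulated data. Alternatives were other scalings, filters, ratios, a lowess length correction (span 0.2), a replicate block, limma-voom (limma 3.58.1), DESeq2 1.42.0 and leaving out libraries. Fits with P0 replicates 1 to 3 or 4 and 5 were added after seeing the data. Reads carry no molecular identifiers. Plots used matplotlib 3.10.9.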

Additional observations from a re-analysis of the deposited data

Results flagged for a closer look

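Of 156 sets of 5 library values examined, 6 held 1 library far from the other 4, and chance gives about 1 in 20, or 7.8. In P0 neurons, chr2:36451118-36451542 had a relative read count of 17.6 in replicate 1 against 16.1 to 16.3 in the others, chr1:171554704-171555284 had 5.17 in replicate 4 against 4.80 to 4.90, and chr12:113829994-113830878 had 6.36 in replicate 3 against 5.92 to 5.98. In P21 neurons, chr12:113829994-113830878 had 5.97 in replicate 3 against 5.35 to 5.50. Members held 11.7% of the reads in replicate 5 of P21 neurons against 12.1% to 12.3% in the others. The median count used for scaling was 34.2 in each 1000000 reads in replicate 2 of P21 neurons against 30.9 to 31.7.

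At 4 neighbours of members the change with age differed between neurons and non-neurons (edgeR interaction, adjusted over all tested intervals). The difference on the log2 scale was 0.81 ± 0.12 at chr11:119048400-119048900 (SE, adjusted p = 2.26e-06), 1.66 ± 0.37 at chr2:27539787-27540851 (adjusted p = 0.000808), 1.77 ± 0.11 at chr12:113830878-113831787 (adjusted p = 6.93e-16) and 1.32 ± 0.19 at chr1:135068066-135069157 (adjusted p = 8.95e-07). These neighbours were chosen for large ratios among groups.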

How the results depend on the processing

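The number of members stayed within 1.5 times 1303 under each alternative scaling and read minimum, with medians for means and after the length correction (range 944 to 1885), but was 801 at a ratio of at most 1.2. Members called for cell type at P0 (46) numbered 30 with DESeq2 size factors, 28 with totals, 14 with upper-quartile factors, 16 with the rule's median, 18 with P0 replicates 1 to 3, 0 with replicates 4 and 5 and 18 to 56 with 1 library left out. Those for cell type at P21 (197) were 360 with upper-quartile factors, 300 with the rule's median and 160 to 221 with 1 library left out. For age in neurons (161) they were 722 with totals, 244 with the rule's median, 91 with P0 replicates 1 to 3 and 122 to 193 with 1 library left out. For age in non-neurons (196) they were 835 with totals, 86 with P0 replicates 1 to 3, 56 with replicates 4 and 5 and 127 to 237 with 1 library left out. For the interaction (17) they were 32 with totals, 43 with upper-quartile factors, 36 with the rule's median, 26 with DESeq2, 6 with P0 replicates 1 to 3, 3 with replicates 4 and 5 and 11 to 27 with 1 library left out. With the replicate number as a block, calls were 85 for cell type at P0 and 43 for the interaction, while the other counts moved by less than 1.5 times; same-numbered deviations correlated at -0.09 to 0.32, not above 0.1 in every pair of any 2 groups, so numbers were not taken to pair libraries, which correlated best with the one of their own number in 1 or 2 of 5 cases per pair of groups. The cause of these changes was not tested. With part of the P0 libraries, calls over all tested intervals also fell in every comparison but cell type at P21. Neighbours called for any difference (428) numbered 391 to 473 over the alternatives run and 415 to 431 with 1 library left out. A fit of only the compared groups was not run for the interaction. Under totals the ratios of 14 of the 37 intervals named by the rule moved by less than the replicate spread. Depth limits the neighbours, some with under 20 reads in a library, more than the members.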
